A study of Mus musculus with 16 samples.

Results

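The 10 transporters described here move bile acids, bile phospholipids and other organic anions across the hepatocyte membrane. They were taken from the deposited expression table by gene symbol, each symbol matched 1 gene ID, and the table holds 35275 IDs in all. RNA was measured by sequencing in total liver RNA of mice, in 16 libraries that fall into 4 groups of 4. The genotypes were wild type (WT) and a liver-specific knockout (LKO) of Zfp36l1, which encodes an RNA-binding protein that shortens the life of messenger RNAs with AU-rich stretches. Mice of both genotypes ate a control or an ethanol diet. WT control and LKO control mice therefore ate no ethanol, and WT ethanol and LKO ethanol mice ate the ethanol diet. The agent or promoter behind the deletion, the strain, sex and age of the mice, and the length of feeding are not given in the sources used here. Within a group, libraries carry the numbers 1 to 4 in the order of the records, and these numbers were not used to pair libraries. Each library has its own number in the labels, but no label says that the numbers are separate animals, so p-values measure the spread between these libraries.

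Hepatocytes take bile acids from portal blood at their sinusoidal (basolateral) face and pump them into bile at the canalicular face. Uptake of conjugated bile acids rests mainly on the sodium-dependent carrier NTCP, encoded by Slc10a1. The organic anion transporting polypeptides (Slco genes) take up unconjugated bile acids, bilirubin, hormones and drugs without sodium. At the canaliculus the bile salt export pump (Abcb11), the phospholipid floppase (Abcb4) and MRP2 (Abcc2) feed bile. MRP3 (Abcc3) and MRP4 (Abcc4) sit on the basolateral face and return organic anions to the blood, a route known to be used more when bile flow is impaired.

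Promoter sequences are shown for 3 genes that carry the results below, and short sites of Abcc2 because it alone held the AU-rich motif. RefSeq promoter entries on GRCm38.p6 were found for 9 of the 10 members, with 13 start sites. The 250 bases before the start are printed 5′ to 3′ on the strand of the gene. Slco1b2 and Slco1a1 are shown as the uptake carriers that fell on ethanol, and Abcc4 as the exporter that rose. The windows lie at chr6:141629268-141629517 (plus strand) for Slco1b2, at chr6:141946963-141947212 (minus strand) for Slco1a1, at chr14:118706220-118706469 (minus strand) for the outer start of Abcc4, and at chr14:118676932-118677181 (minus strand) for its inner start. Capitals mark matches to TGACNNNGC, the core of the antioxidant response element bound by Nrf2, searched on both strands.
Slco1b2: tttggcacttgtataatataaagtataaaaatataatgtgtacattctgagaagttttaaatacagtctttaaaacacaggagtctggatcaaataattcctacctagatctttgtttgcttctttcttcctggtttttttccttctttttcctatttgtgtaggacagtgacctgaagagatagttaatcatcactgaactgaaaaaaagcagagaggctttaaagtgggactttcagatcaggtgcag
Slco1a1: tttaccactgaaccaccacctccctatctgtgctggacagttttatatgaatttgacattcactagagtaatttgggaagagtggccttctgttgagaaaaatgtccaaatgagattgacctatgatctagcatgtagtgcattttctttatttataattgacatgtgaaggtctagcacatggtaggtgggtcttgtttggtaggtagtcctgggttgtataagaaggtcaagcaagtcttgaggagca
Abcc4 outer start: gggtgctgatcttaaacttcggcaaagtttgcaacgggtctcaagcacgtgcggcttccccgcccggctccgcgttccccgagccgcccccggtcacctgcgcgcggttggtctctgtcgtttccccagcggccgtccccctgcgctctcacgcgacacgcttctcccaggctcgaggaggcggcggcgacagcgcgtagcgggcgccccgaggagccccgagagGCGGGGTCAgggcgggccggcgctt
Abcc4 inner start: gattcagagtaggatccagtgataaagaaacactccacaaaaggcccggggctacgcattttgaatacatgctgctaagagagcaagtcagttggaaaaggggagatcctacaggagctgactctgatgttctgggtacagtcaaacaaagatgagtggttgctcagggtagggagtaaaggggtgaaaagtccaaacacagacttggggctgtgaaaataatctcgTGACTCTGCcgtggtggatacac

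The core was present in 3 of the 13 windows, against 10.2% of all 32851 promoter windows of the same length. The outer Abcc4 window held it on the opposite strand, as GCGGGGTCA at 25 to 17 bases before the start. The inner Abcc4 window held it on the gene's strand, as TGACTCTGC at 23 to 15 bases before the start. The third match was in Abcc2, at 98 to 90 bases before the RefSeq start, within chr19:43782200-43782228 (plus strand). In GENCODE M21 Abcc2 begins at chr19:43782192, so that this match lies inside the gene there and is upstream of the RefSeq start only.
Abcc2 promoter match: ctcactgggaTGACATAGCattcatctag
A further 4 patterns were searched, and their letters were in 0 of the 13 windows. They were AGGTCA repeats of nuclear receptors (inverted with 1 base between, direct with 1 base between, direct with 4 bases between) and an HNF1 site of GTTAAT and ATTAAC with 1 base between. These patterns were rare at large, in 0.00609%, 0.0335%, 0.0152% and 0.00913% of all windows. A match is a description of the letters and no evidence of binding.

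The knockout removes a protein that binds AU-rich sequence, so TATTTAT was counted in the 3′ untranslated region of the principal GENCODE M21 transcript of each member. Abcc2 alone among the 10 held it, with 3 copies at 3102, 3110 and 3163 bases after the stop codon in a region of 3183 bases. Of all 10541 tested genes with such a region, 27.4% held the 7-mer, and of the 1164 with a region about as long as that of Abcc2, 54.5% held it. The 3 sites are printed with the 7-mer in capitals.
Abcc2 site 1: cagccagttcTATTTATctatttatct
Abcc2 site 2: tctatttatcTATTTATctattaaatg
Abcc2 site 3: taaataaaacTATTTATttaaataaac

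Values are FPKM, fragment counts scaled by gene length and library depth, and so compare levels between genes per length. Zfp36l1 (ENSMUSG00000021127) checked the genotype labels. It was at 9.79, 9.30, 25.5 and 14.8 FPKM in WT control libraries 1 to 4, and at 9.87, 13.1, 20.99 and 23.3 in WT ethanol. It was at 1.03, 0.836, 1.42 and 1.40 in LKO control and at 0.688, 0.572, 1.6 and 1.76 in LKO ethanol. No LKO library reached a WT library, and the log2 difference averaged over diets was −2.89 (SE 0.23, adjusted p = 4.5e-06, limma). Markers of hepatocytes were high in all groups, with a summed level of 7 genes of 44125 to 73935 FPKM.

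WT ethanol library 2 stood apart from the others. It had 9871914 counted reads, against 19069197 to 24767963 in the other 15, and 22.6% of its reads were mitochondrial against 3.64% to 6.97%. Its Spearman correlation across genes with the others was 0.664 to 0.721, while the others correlated at 0.858 to 0.985. Of the tested genes, 138 were listed at 0 in it and at 1 FPKM or more in all 15 others. The Y-linked Ddx3y was at 1.43 FPKM there and at most at 0.0448 elsewhere, and Xist was at 6.62 against 13.7 to 49.4. Member results on ethanol in WT are therefore given with and without this library. A second division ran through all groups, with libraries 1 and 2 on one side and libraries 3 and 4 on the other along a component that held 40.0% of the variance within groups. WT ethanol library 2 was left out of that component and has no measured side, so that fits with the term and all libraries place it with library 1 by its number. The labels name no batch. What this division is was not tested, and results from a fit with a term for it are given where they differ.

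On the ethanol diet 2 of the 5 uptake carriers fell, 1 of the 2 basolateral exporters rose, and none of the 3 canalicular exporters was called by limma with all libraries or without WT ethanol library 2. Averaged over genotypes, these 3 of the 10 members were called at an adjusted p under 0.05, against 7.78% of the 11298 tested genes. They were Slco1a1 and Slco1b2, which fell, and Abcc4, which rose. Abcc4 passed the filter on low values only through its ethanol libraries, so that a difference between diets was a condition of its being tested. Without WT ethanol library 2, 4 members were called against 20.5% of genes, the fourth being Abcc3, which rose. A fit without that library and with the term for the division called 6 members against 32.6%, adding Slc10a1 and Slco2b1, which both fell. These shares of all genes are large, so that the counts of members say little by themselves. The median log2 change of the members was −0.36 with all libraries and 0.0013 without WT ethanol library 2, against 0.02 and 0.11 over all tested genes.

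**Figure D1:**
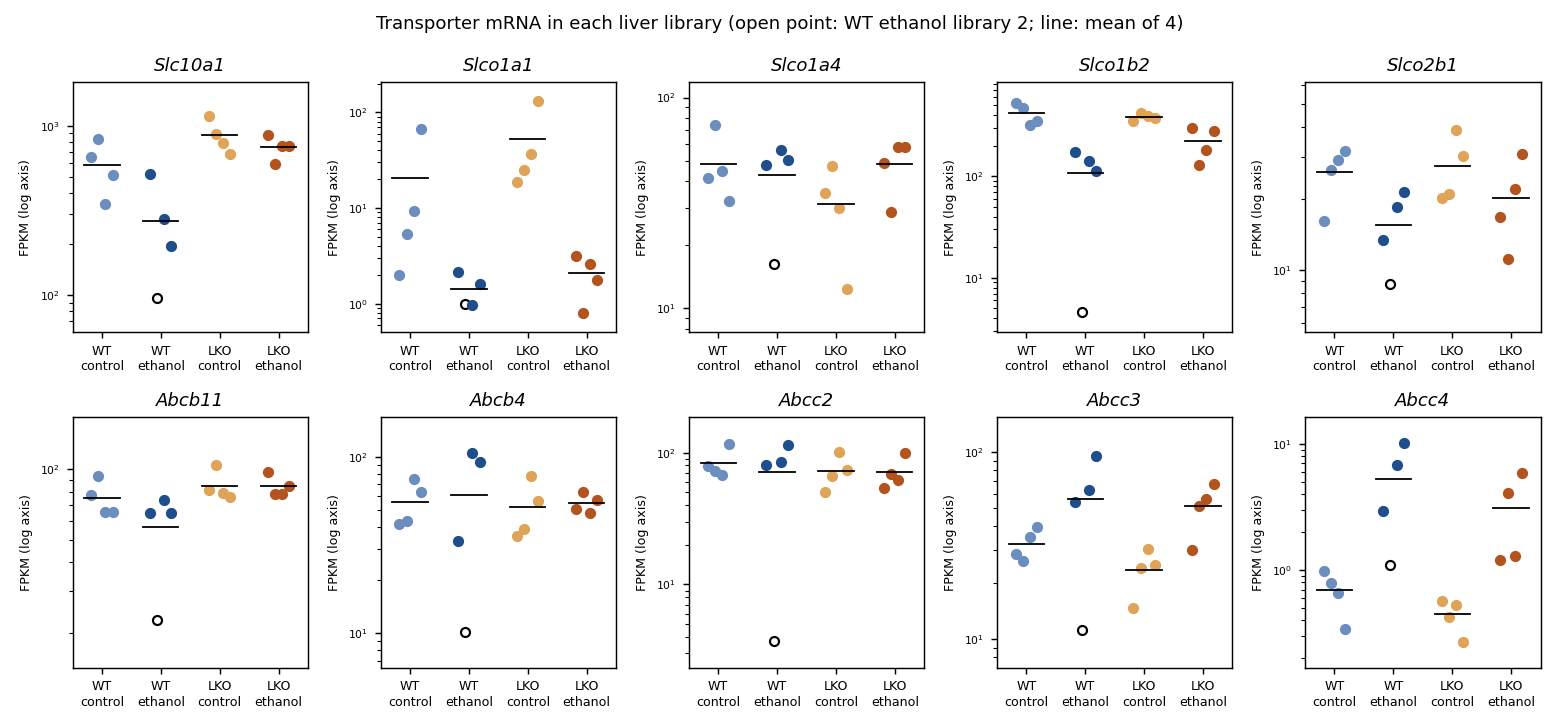
FPKM of each of the 10 transporters (log axis) in the 4 groups, 1 point per library, with a line at the mean of the 4 libraries. The open point is WT ethanol library 2, which is the lowest WT ethanol library for every gene shown except Slco1a1. All 8 ethanol libraries lie above all 8 control libraries for Abcc4, and below them for Slco1b2.

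Within WT, 1 member, Abcc4, was called with all libraries (4.18% of all genes). Without library 2, 3 were called (9.48%), Slco1b2, Abcc3 and Abcc4. Abcc4 passed the filter on low values only through its ethanol libraries, which limits every count here that includes it. Its WT call with all libraries was lost with no filter on low values. Groups did not overlap for Slco1b2 and Abcc4 with all libraries (10.1% of all genes), and also for Abcc3 without library 2 (20.7%). Within LKO, 1 member was called with all libraries (0.425% of all genes) and 3 without WT ethanol library 2 (3.62%), a library that enters the LKO comparison only through the shared estimate of spread. Groups did not overlap in LKO for Slco1a1, Slco1b2 and Abcc4 (12.3% of all genes). With the term for the division and without library 2, 6 members were called in WT (19.7%) and 4 in LKO (10.7%). A fit with libraries weighted by quality called 6 members in WT (38.4% of all genes), 3 in LKO (7.69%) and 6 averaged over genotypes (36.7%), Abcb4 being the canalicular exporter among them. The weights come from the scatter of these same expression values about the group means, and not from a separate measure of quality. In that fit 78.4% of the weight of the WT ethanol group lay on library 3, so that its calls on that group rest largely on 1 library.

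**Figure D2:**
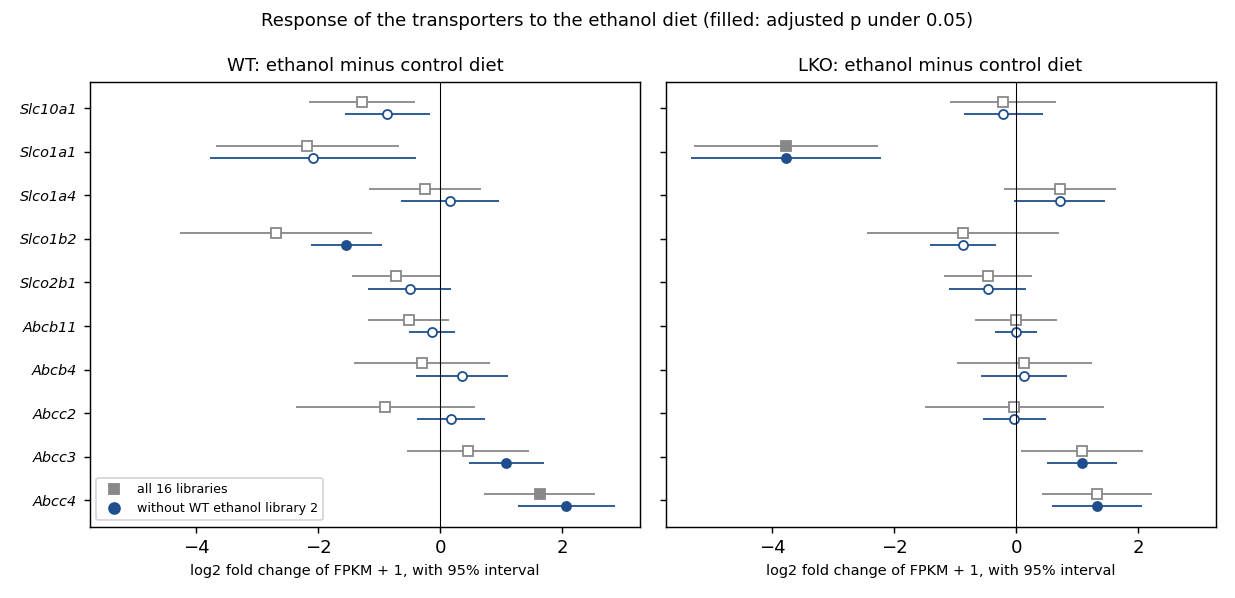
Log2 change of FPKM + 1 between the ethanol and the control diet for each transporter in WT (left) and LKO (right), with 95% intervals from limma. Squares are the fit to all 16 libraries, circles the fit without WT ethanol library 2, and filled symbols have an adjusted p under 0.05. Slco1b2 and Abcc3 are filled in WT only as circles, Abcc4 is filled in WT in both fits, and Slco1a1 is filled in LKO in both fits.

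Slc10a1 (ENSMUSG00000021135, chr12:80953183-80968705), which encodes the sodium-dependent bile acid carrier NTCP, was the most abundant of the 10 in every group. It was at 656, 837, 344 and 512 FPKM in WT control and at 520, 96.0, 279 and 195 in WT ethanol. In LKO control it was at 1135, 898, 788 and 681, and in LKO ethanol at 884, 597, 762 and 755. WT ethanol library 1 lay inside the range of the WT controls and the other 3 lay below it, whereas the LKO diets overlapped broadly. The log2 change on ethanol in WT was −1.28 (SE 0.41, adjusted p = 0.0873) and −0.87 without library 2 (adjusted p = 0.107). It passed the threshold without WT ethanol library 1 (−1.68, adjusted p = 0.0129) and in the fit with the term and without library 2 (−0.78, adjusted p = 0.0430). It also passed with libraries weighted by quality (−1.14, adjusted p = 0.00158), a fit that rests largely on WT ethanol library 3. In LKO the change was −0.21 (95% interval −1.08 to 0.65, adjusted p = 0.985). The difference between these responses was 1.07 (95% interval −0.15 to 2.29, adjusted p = 0.927), and 0.66 (−0.29 to 1.61, adjusted p = 0.968) without WT ethanol library 2, so that the genotypes were not shown to differ in it.

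Slco1b2 (ENSMUSG00000030236, chr6:141629518-141686646) encodes the main liver-specific organic anion transporting polypeptide of mice, which takes up bilirubin and bile acids. It was at 529, 467, 318 and 349 FPKM in WT control and at 171, 4.65, 140 and 112 in WT ethanol. In LKO control it was at 350, 415, 392 and 377, and in LKO ethanol at 297, 128, 181 and 279. In both genotypes every ethanol library was below every control library of that genotype. WT ethanol library 2 was far below the other 3 of its group. Without it, the mean fell from 416 ± 99.1 (SD, n = 4) to 141 ± 29.6 FPKM (SD, n = 3).

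In WT the log2 change of Slco1b2 was −2.70 (SE 0.75, adjusted p = 0.0506) with all libraries and −1.54 (SE 0.28, adjusted p = 0.00491) without library 2. Without that library both the change and its SE were smaller. The WT change also passed without WT ethanol library 1 (−3.19, adjusted p = 0.0210) and without library 3 (−3.09, adjusted p = 0.0404). In LKO the change was −0.87 (SE 0.75, adjusted p = 0.867), and without WT ethanol library 2 it had the same size with an SE of 0.25 and an adjusted p of 0.0732. With the term for the division and without that library the LKO change passed the threshold (adjusted p = 0.0348), and with the term alone it did not (adjusted p = 0.747). Averaged over genotypes the change was −1.78 (adjusted p = 0.0471), which leaving out any 1 of 12 libraries took over the threshold (adjusted p up to 0.107), these being all 4 libraries of WT control, of LKO control and of LKO ethanol. It was also lost with a pseudocount of 0.1 (adjusted p = 0.0624) or 0.5 (adjusted p = 0.0526), with no filter on low values (adjusted p = 0.128) and with libraries scaled to equal sums (adjusted p = 0.0781). Without WT ethanol library 2 it was −1.20 (adjusted p = 0.000681). Within libraries 1 and 2 the WT change was −1.53 without library 2, with 1 ethanol library, and within libraries 3 and 4 it was −1.40. The LKO changes on these sides were −0.96 and −0.77. The 2 genotypes' responses differed by 1.83 (95% interval −0.39 to 4.06, adjusted p = 0.927), and by 0.67 (−0.12 to 1.47, adjusted p = 0.968) without WT ethanol library 2.

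Slco1a1 (ENSMUSG00000041698, chr6:141907282-141946962), an uptake carrier known to be higher in male than in female mouse liver, varied most. It was at 2.01, 5.38, 9.36 and 66.4 FPKM in WT control and at 2.16, 0.984, 0.960 and 1.59 in WT ethanol. In LKO control it was at 18.7, 24.9, 37.0 and 131, and in LKO ethanol at 3.13, 0.801, 2.59 and 1.75. Every LKO ethanol library lay below every LKO control library, whereas WT ethanol library 1 lay above WT control library 1. The log2 change in LKO was −3.77 (SE 0.71, adjusted p = 0.0309) and that in WT was −2.18 (SE 0.71, adjusted p = 0.0954), or −2.09 without WT ethanol library 2 (adjusted p = 0.109). With the term for the division and without that library the WT change passed (−2.28, adjusted p = 0.0363), as it did in a fit that weighted libraries by quality (−2.09, adjusted p = 0.0183). The 2 changes differed by −1.59 (95% interval −3.72 to 0.54, adjusted p = 0.927). Averaged over genotypes Slco1a1 fell by 2.98 (adjusted p = 0.00198), and stayed called when any 1 library was left out. The LKO change passed the threshold in 11 of 16 such fits and missed it without LKO control library 2, 3 or 4 or LKO ethanol library 2 or 3 (adjusted p up to 0.146). Within libraries 1 and 2 the WT change was −0.81, or −0.47 without WT ethanol library 2, and within libraries 3 and 4 it was −3.55. The LKO changes on these sides were −3.05 and −4.49.

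The highest Slco1a1 values fell in libraries with other male-biased liver transcripts. The sum of 8 such genes was 1228 FPKM in LKO control library 4 and 420 in WT control library 4, and 72.8 to 183 in the other 14. It was 117 to 420 in WT control, 72.8 to 182 in WT ethanol, 82.1 to 1228 in LKO control and 73.5 to 134 in LKO ethanol. Cyp4a12a, a male-specific fatty acid hydroxylase, was at 6.23 FPKM in LKO control library 4 and at 0 to 0.238 elsewhere. The sum of 9 female-biased genes was 319 FPKM in LKO control library 4, against 841 to 3022 in the others. Xist was present at 24.98 FPKM and Ddx3y was listed at 0 in that library. WT control library 4 also lay within the Xist and Ddx3y ranges given above for all libraries but WT ethanol library 2. Neither library was thus set apart by these 2 transcripts. Of the 6 male-biased genes tested, 2 fell on ethanol averaged over genotypes, Elovl3 (−1.36, adjusted p = 0.0107) and Cyp7b1 (−1.08, adjusted p = 0.0192), where 7.78% of all genes were called. Elovl3 was also higher in LKO averaged over diets (1.98, adjusted p = 0.0112). Without LKO control library 4 the LKO change of Slco1a1 was −3.20 (adjusted p = 0.1003), with the remaining controls at 18.7 to 37.0 FPKM all above the LKO ethanol libraries. Without WT control library 4 the WT change was −1.30 (adjusted p = 0.251). The part of these libraries' male-biased transcripts in the Slco1a1 result was not tested beyond leaving the libraries out.

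**Figure D3:**
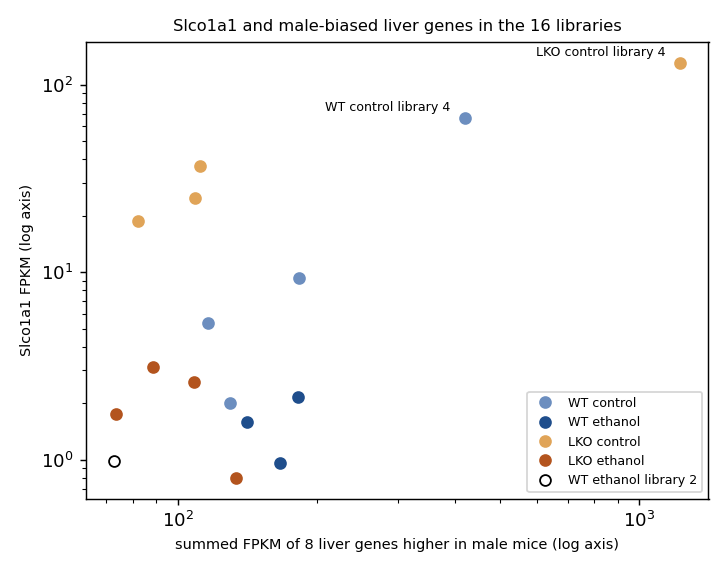
Slco1a1 level of each library (log axis) against the summed FPKM of 8 liver genes that are higher in male mice (log axis), colored by group. WT control library 4 and LKO control library 4 are highest on both axes, while the other 3 LKO control libraries have 18.7 to 37.0 FPKM of Slco1a1 at sums of 82.1 to 112.

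Slco1a4 (ENSMUSG00000030237, chr6:141805440-141856199), a carrier that also takes up digoxin and is known to respond to PXR ligands, was not called on either diet comparison. It ranged from 32.3 to 74.2 FPKM in WT control, from 16.3 to 56.2 in WT ethanol, from 12.3 to 47.3 in LKO control and from 28.5 to 58.5 in LKO ethanol. Its change on ethanol was −0.25 in WT (95% interval −1.16 to 0.67) and 0.15 without library 2 (−0.65 to 0.96). In LKO it was 0.71 (−0.21 to 1.63, adjusted p = 0.707). Slco1a1, Slco1a4 and Slco1b2 lie beside each other on chromosome 6 and share sequence, and how reads that match several of them were counted is not given in the sources used here.

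Slco2b1 (ENSMUSG00000030737, chr7:99657804-99711340), a widely expressed carrier of sulfated steroids, was at 16.1, 26.3, 29.1 and 31.7 FPKM in WT control and at 13.3, 8.77, 18.5 and 21.2 in WT ethanol. In LKO it was at 20.1, 20.9, 38.7 and 30.3 on the control diet and at 16.7, 11.2, 22.0 and 30.8 on ethanol. The groups overlapped in both genotypes. The change was −0.73 in WT (adjusted p = 0.250), or −0.50 without library 2 (adjusted p = 0.342), and −0.47 in LKO (adjusted p = 0.796). With the term alone it was −0.60 averaged over genotypes (adjusted p = 0.0196). With the term and without WT ethanol library 2, it was −0.62 in WT (adjusted p = 0.0342) and −0.54 averaged over genotypes (adjusted p = 0.00580).

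Summed over the 5 uptake genes, FPKM was 1098 ± 291 in WT control and 439 ± 260 in WT ethanol (SD, n = 4), or 543 ± 192 without library 2 (SD, n = 3). In LKO it was 1370 ± 145 on the control diet and 1041 ± 206 on ethanol (SD, n = 4). Slc10a1 and Slco1b2 made up most of this sum in every group. These sums describe the levels and were not tested.

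**Figure D4:**
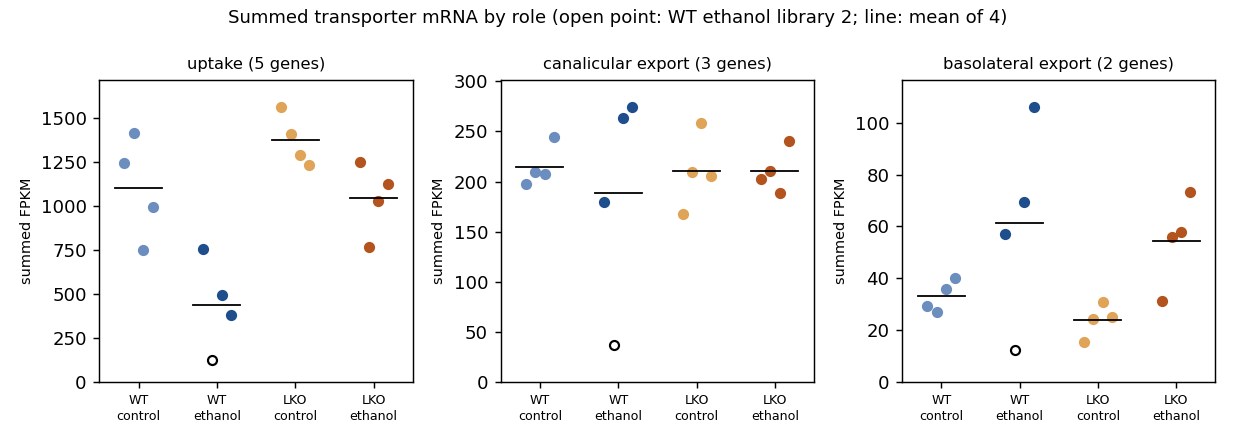
Summed FPKM of the uptake, canalicular and basolateral export genes in each library, by group, on linear axes that start at 0, with a line at the mean of 4 libraries. The open point is WT ethanol library 2, which is the lowest of its group in each panel. Canalicular sums lie between 167 and 274 FPKM in the other 15 libraries.

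None of the 3 canalicular exporters was called on ethanol in either genotype by limma, with or without WT ethanol library 2. Abcb11 (ENSMUSG00000027048, chr2:69238282-69342616), the bile salt export pump, was at 77.4, 93.4, 65.4 and 65.5 FPKM in WT control and at 65.0, 22.6, 73.4 and 65.0 in WT ethanol. It was at 81.6, 104, 78.8 and 75.7 in LKO control and at 97.0, 77.9, 78.4 and 84.6 in LKO ethanol. Leaving aside WT ethanol library 2, values on both diets overlapped in both genotypes. The change in WT was −0.52 (95% interval −1.19 to 0.14, adjusted p = 0.382), and −0.14 (−0.51 to 0.23) without that library. In LKO it was −0.0031 (−0.67 to 0.66), or −0.35 to 0.34 as the interval without WT ethanol library 2.

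Abcb4 (ENSMUSG00000042476, chr5:8893717-8959231), which moves phosphatidylcholine into bile, was at 41.4, 43.2, 74.5 and 62.9 FPKM in WT control. In WT ethanol it was at 33.6, 10.2, 105 and 94.1, the widest spread of the 4 groups. In LKO it ranged from 35.5 to 77.8 on the control diet and from 48.3 to 63.1 on ethanol. In WT libraries 3 and 4 were higher than libraries 1 and 2 on either diet. The change was −0.30 in WT (−1.41 to 0.80) and 0.36 without library 2 (−0.40 to 1.11), and 0.13 in LKO (−0.98 to 1.24). The interval in WT without library 2 thus allowed a rise of up to 1.11 on the log2 scale, and the fit with weights gave 0.91 in WT (adjusted p = 0.0108) and 0.58 averaged over genotypes (adjusted p = 0.0230). Library 3, which held most of that weight, had the highest Abcb4 level of the group.

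Abcc2 (ENSMUSG00000025194, chr19:43782192-43840740) encodes MRP2, which exports bilirubin glucuronides and glutathione conjugates. It was at 79.2, 72.7, 67.2 and 116 FPKM in WT control and at 80.6, 3.73, 85.4 and 115 in WT ethanol. It ranged from 50.3 to 101 in LKO control and from 54.3 to 99.1 in LKO ethanol. The change in WT was −0.90 (−2.37 to 0.57) with all libraries and 0.17 (−0.39 to 0.74) without library 2, and that in LKO was −0.03 (−1.50 to 1.44). Summed over Abcb11, Abcb4 and Abcc2, FPKM was 215 ± 20.3 in WT control and 188 ± 110 in WT ethanol (SD, n = 4), or 239 ± 52.0 without library 2 (SD, n = 3), so that the WT ethanol mean lay below that of the controls with library 2 and above it without. The LKO sums were 210 ± 37.2 on the control diet and 211 ± 22.0 on ethanol (SD, n = 4).

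Of the basolateral exporters, Abcc4 rose on ethanol with all libraries, and Abcc3 rose once WT ethanol library 2 was left out. Abcc3 (ENSMUSG00000020865, chr11:94343295-94392997), which encodes MRP3 and returns glucuronides and bile acids to blood, was at 28.5, 26.2, 35.3 and 39.7 FPKM in WT control. It was at 54.1, 11.2, 62.8 and 95.8 in WT ethanol, at 14.7, 24.0, 30.5 and 24.9 in LKO control and at 30.1, 51.7, 56.4 and 67.3 in LKO ethanol. WT ethanol library 2 was the lowest WT library and the other 3 were above all WT controls. In LKO, 3 of the 4 ethanol libraries were above all controls and library 1 lay just below the highest control. With all libraries the change was 0.45 in WT (SE 0.48, adjusted p = 0.641) and 1.08 in LKO (SE 0.48, adjusted p = 0.493). Without WT ethanol library 2 Abcc3 rose by 1.08 in WT (adjusted p = 0.0305) and by 1.08 in LKO (adjusted p = 0.0371), 2.12-fold in each on the scale of FPKM + 1. In LKO only the shared estimate of spread changed. Within the sides of the division, again without that library, the changes were 0.96 and 1.03 in WT and 1.03 and 1.13 in LKO.

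Abcc4 (ENSMUSG00000032849, chr14:118482692-118706219), which encodes MRP4 and exports bile acids together with glutathione, was the least abundant member on the control diet. It was at 0.979, 0.790, 0.659 and 0.343 FPKM in WT control and at 2.95, 1.09, 6.77 and 10.1 in WT ethanol. In LKO control it was at 0.575, 0.428, 0.531 and 0.270, and in LKO ethanol at 1.2, 4.06, 1.29 and 5.84. Every ethanol library was above every control library, across both genotypes. These values rest on 37 to 108 reads per control library and 62 to 1158 per ethanol library. Abcc4 passed the filter on low values only through its 8 ethanol libraries, since no control library reached 1 FPKM.

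Abcc4 rose in WT by 1.63 on the log2(FPKM + 1) scale (SE 0.43, adjusted p = 0.0417), a 3.09-fold change on that scale, and by 2.06 without library 2 (adjusted p = 0.00528). The call with all libraries was lost when 1 library of WT control or LKO control, or WT ethanol library 3 or 4, was left out (adjusted p up to 0.121), and also with no filter on low values (adjusted p = 0.109). In LKO the change was 1.33 (SE 0.43, adjusted p = 0.245), and the same change without WT ethanol library 2 had an adjusted p of 0.0455. Averaged over genotypes Abcc4 rose by 1.48 (adjusted p = 0.00641) and was called in all 16 fits that left out 1 library and with no filter on low values (adjusted p = 0.0300). Within libraries 1 and 2 the WT change was 0.61, or 1.07 without library 2, and within libraries 3 and 4 it was 2.64. The LKO changes on these sides were 1.15 and 1.51. Summed over Abcc3 and Abcc4, FPKM was 33.1 ± 5.98 in WT control and 61.2 ± 38.6 in WT ethanol (SD, n = 4), or 77.5 ± 25.4 without library 2 (SD, n = 3). In LKO it was 24.0 ± 6.48 on the control diet and 54.5 ± 17.3 on ethanol (SD, n = 4).

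Abcc3 is also known from bile duct cells, so markers of other liver cells are given beside these results. In whole liver, a change in the share of a cell type and a change of RNA per cell cannot be told apart. The summed level of 8 cholangiocyte markers was 29.7 to 34.2 FPKM in WT control, 21.2 to 76.0 in WT ethanol, 26.9 to 30.1 in LKO control and 19.2 to 31.6 in LKO ethanol. The defining duct genes Cftr and Sctr were at most at 0.0449 and 0.201 FPKM in any library. Of the 3 duct markers tested, Sox9 rose on ethanol averaged over genotypes (0.79, adjusted p = 0.0160), and without WT ethanol library 2 Spp1 fell (−0.64, adjusted p = 0.0128), in fits that called 7.78% and 20.5% of all genes. The median of the duct marker sum was 31.5 FPKM in WT control and 29.7 in WT ethanol, and 28.2 and 23.2 in LKO. The sum of 5 leukocyte markers was 3.33 to 8.06 FPKM in WT control, 5.37 to 13.4 in WT ethanol, 3.29 to 6.69 in LKO control and 3.89 to 13.8 in LKO ethanol, and neither of the 2 that were tested was called. The sum of 5 Kupffer cell and macrophage markers was 56.7 to 156 FPKM in WT control, 58.7 to 169 in WT ethanol, 53.2 to 172 in LKO control and 31.9 to 190 in LKO ethanol. The sum of 4 endothelial markers was 17.04 to 25.7 FPKM in WT control, 9.20 to 60.2 in WT ethanol, 12.5 to 27.0 in LKO control and 24.2 to 60.4 in LKO ethanol, and 1 of these, Lyve1, rose averaged over genotypes (1.75, adjusted p = 0.0208). None of the 7 hepatocyte markers was called in either genotype. The part of other cells in the rise of Abcc3 was not tested.

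The genotype comparison asks whether loss of Zfp36l1 changed these transporters on either diet. On the control diet 0 of the 10 members were called by limma, against 0.00885% of all genes, and 1 had an unadjusted p under 0.05. In 0 members did the groups not overlap, against 9.25% of genes. On the ethanol diet 0 members were called, against 0.0797%, and 3 had an unadjusted p under 0.05. The fit with weights, which rests largely on WT ethanol library 3, called 4 there against 30.7% of all genes, Slc10a1 and Slco1b2 as higher in LKO and Abcb4 and Abcc4 as lower. Averaged over diets it called 3 against 34.1%. Groups did not overlap for Slc10a1 and Abcb11, 2 of 10 against 2.69% of all genes, or 7.03% without WT ethanol library 2. Without that library 0 members were called on either diet, against 0.0443% and 0.221% of genes. Averaged over diets 0 members were called, against 0.142% of genes, or 1.07% without WT ethanol library 2, with 2 and 3 members at an unadjusted p under 0.05.

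Slc10a1 was the member nearest to a genotype difference. It lies at chr12:80953183-80968705, on the same chromosome as the deleted gene Zfp36l1 at chr12:80107754-80113013. The part of this position in the Slc10a1 difference was not tested. On ethanol, LKO libraries held 597 to 884 FPKM and WT libraries 96.0 to 520. The log2 difference was 1.70 (SE 0.41, adjusted p = 0.160), a 3.24-fold higher level in LKO, and 1.28 without WT ethanol library 2 (adjusted p = 0.124). It passed without WT ethanol library 1 (2.09, adjusted p = 0.0115), and with the term for the division and without library 2 (1.19, adjusted p = 0.0400, 1.58% of all genes called). With libraries weighted by quality it was 1.52 (adjusted p = 0.00161), and 1.06 averaged over diets (adjusted p = 0.00166). On the control diet the groups overlapped, with a difference of 0.62 (95% interval −0.24 to 1.49). Averaged over diets Slc10a1 was 1.16 higher in LKO (SE 0.29, adjusted p = 0.152), with an adjusted p of 0.0557 without WT ethanol library 2, of 0.0252 without WT ethanol library 1, and of 0.0130 in the fit with the term and without WT ethanol library 2 (0.91, 11.1% of all genes called). With the term alone it was 0.0826. On ethanol within libraries 3 and 4 the difference was 1.70, and within libraries 1 and 2 it was 1.69, or 0.48 without WT ethanol library 2, with 1 WT library.

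Abcb11 on ethanol was at 77.9 to 97.0 FPKM in LKO and at 22.6 to 73.4 in WT. The log2 difference was 0.69 (95% interval 0.03 to 1.36, adjusted p = 0.404), and 0.31 (−0.06 to 0.68) without WT ethanol library 2. For Slco1b2 on ethanol it was 1.74 (0.17 to 3.32, adjusted p = 0.376), and 0.58 without that library (adjusted p = 0.292), with overlapping groups. With libraries weighted by quality it was 0.75 (adjusted p = 0.0397). Abcc4 on ethanol was at 1.2 to 5.84 FPKM in LKO and at 1.09 to 10.1 in WT, and these ranges overlapped. Its log2 difference was −0.51 with all libraries (95% interval −1.41 to 0.39, adjusted p = 0.671), −0.94 without WT ethanol library 2 (adjusted p = 0.235), and −1.23 with libraries weighted by quality (adjusted p = 0.00751). For Abcb4 on ethanol it was 0.32 with all libraries (95% interval −0.79 to 1.43, adjusted p = 0.847), and turned to −0.34 without that library (adjusted p = 0.589) and −0.85 with the weights (adjusted p = 0.0342). On the control diet Slco1a1 was at 18.7 to 131 FPKM in LKO and at 2.01 to 66.4 in WT, a log2 difference of 1.89 (0.39 to 3.4) with an adjusted p of 0.9997. The interaction of genotype and diet was called for 0 members by limma, with 0 at an unadjusted p under 0.05, and for 0% of all genes with or without WT ethanol library 2. In the fit with weights the unadjusted p was 0.0190 for Slc10a1, 0.0206 for Slco1b2 and 0.0201 for Abcc4. Their adjusted p in that fit was 0.135, 0.140 and 0.139.

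Genes that act with these transporters were read from lists, of which the members called are named. Of 13 enzymes of bile acid synthesis and conjugation, 2 fell in WT, the rate-limiting Cyp7a1 (−3.19, adjusted p = 0.0139) and the 12α-hydroxylase Cyp8b1 (−1.99, adjusted p = 0.0193), where 4.18% of all genes were called. In LKO 0 were called by limma, where 0.425% of all genes were, and 2, Cyp7a1 and Cyp7b1, had an unadjusted p under 0.05. Without WT ethanol library 2 the WT changes of Cyp7a1 and Cyp8b1 were −2.91 (adjusted p = 0.0200) and −2.16 (adjusted p = 0.0104). Cyp7a1 was at 53.2 to 144 FPKM in WT control and at 2.98 to 18.6 in WT ethanol. In LKO it was at 51.9 to 67.7 on the control diet and at 7.70 to 107 on ethanol, where library 4 alone was above the controls. Averaged over genotypes Cyp7a1, Cyp8b1 and Cyp7b1 fell, where 7.78% of all genes were called.

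Known targets of the drug-sensing receptors CAR and PXR and of Nrf2, factors that are also known to act on Abcc3 and Abcc4, were read as another list. Of 10 tested, 4 rose in WT (4.18% of all genes were called), 2 in LKO (0.425%) and 6 averaged over genotypes (7.78%). Cyp2b10, the standard target of CAR, was at 0.739 to 5.75 FPKM in the 8 control libraries and at 204 to 991 in the 8 ethanol libraries. It rose by 7.15 in WT (adjusted p = 5.2e-08) and by 6.75 in LKO (adjusted p = 1.3e-07). The glutathione transferase Gstm3 rose by 4.72 in WT (adjusted p = 0.00118) and by 4.04 in LKO (adjusted p = 0.00749). In WT Gsta1 (4.91, adjusted p = 0.0136) and the sulfiredoxin Srxn1 (3.42, adjusted p = 0.0109) rose as well. Without WT ethanol library 2 the WT changes were 7.20 for Cyp2b10 (adjusted p = 4.8e-07), 5.22 for Gstm3 (adjusted p = 0.000670), 5.85 for Gsta1 and 3.96 for Srxn1 (adjusted p = 0.00295 for both). The part of CAR, PXR and Nrf2 in the changes of Abcc3 and Abcc4 was not tested.

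Of 15 nuclear receptors and other regulators, 1 was called, Ppara, which fell averaged over genotypes (−1.22, adjusted p = 0.0294), where 7.78% of all genes were called. The bile acid receptor Nr1h4, given for its role in regulating Abcb11, was not called and was at 71.2 to 92.9 FPKM in WT control and at 83.5, 6.93, 45.7 and 61.3 in WT ethanol. Of 11 other transporters of bile salts, bile lipids and organic ions, 0 were called in any diet or genotype comparison with all libraries. Without WT ethanol library 2, the organic anion carrier Slc22a7 (−1.12, adjusted p = 0.0260) fell averaged over genotypes, in a fit that called 20.5% of all genes. Of 7 scaffold and membrane traffic proteins, 0 were called with all libraries. Without that library and in the same fit the scaffold Pdzk1 fell (−0.46, adjusted p = 0.0229). Slc22a7 and Pdzk1 were chosen after their values were seen.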

How the data were processed

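Total liver RNA of 16 mouse libraries was sequenced, and the deposited table holds the authors' FPKM values for 35275 gene IDs, 34490 of them with a symbol. The submitters' processing notes name fastp, STAR 2.6.1, HTSeq, DESeq2 and the mm10 build, without role or order. The annotation, the strand setting, the gene lengths and the treatment of reads with several matches are not given in the sources used here. The steps of the low FPKM values gave whole reads (within 0.001 reads) for 20520 of 20520 genes above 0 in at least 4 libraries, and these set the depth of 9871914 to 24767963 reads per library. Counts were foreseen for the main test, but the values are FPKM, so that limma 3.58.1 in R 4.3.3 was run on log2(FPKM + 1). Fold changes on this scale understate the change of low genes.

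Genes at 1 FPKM or more in at least 4 libraries were kept, 11298 in all, including all 10 members. A model of 4 group means over 16 libraries with a trended spread gave 7 contrasts, with two-sided p-values adjusted over all kept genes by Benjamini-Hochberg and a threshold of 0.05. In groups called not overlapping, every library of one lay beyond every library of the other. The fit was run on simulated reads with the same spread for all genes and no division between libraries. That run therefore does not bear on the division or on the library that stood apart.

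Groups came from the sample labels. The members and all gene lists were chosen with earlier results of these data known. Genes of the lists were named where an adjusted p was under 0.05, at most 4 a list. Nr1h4, the sex-related transcripts and the duct markers named beside a result were named for their roles and lie outside that rule. Alternatives changed the pseudocount, filter, scaling, weights, samples and the term for libraries 1 and 2 against 3 and 4. Promoter windows came from the RefSeq table for GRCm38.p6 and untranslated regions from GENCODE M21, using the longest region among principal transcripts.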

Additional observations from a re-analysis of the deposited data

Results flagged for a closer look

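In 3 of the 44 groups of 4 libraries examined, 1 library's distance from its nearest neighbour, divided by the range of the group, was above Dixon's critical value. Chance alone passes that value in about 1 of 20 groups. Slco1a1 was at 66.4 FPKM in WT control library 4 and at 2.01 to 9.36 in the other 3 (gap over range 0.886). It was at 130.6 FPKM in LKO control library 4 and at 18.7 to 37.0 in the other 3 (0.837). Both libraries also held the highest summed levels of male-biased liver genes, 420 and 1228 FPKM. Abcb11 was at 22.6 FPKM in WT ethanol library 2 and at 65.0 to 73.4 in the other 3 (0.835), and this library had the fewest reads, 9871914, and the highest mitochondrial share, 22.6%.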

How the results depend on the processing

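No paired analysis was made because the labels name no pairs: titles carry numbers that are each library's own, and libraries 1 to 4 are numbered by record order. Some title numbers are adjacent between the diets of a genotype, but no label says that adjacent numbers mark pairs. Over 38 results for single genes and 1092 alternative values, 993 kept their direction and their side of the threshold, 42 were newly past it, 35 were no longer past it and 22 changed sign. Members called on ethanol in WT numbered 1 as reported, 0 with no filter on low values, with equal sums or with only the groups compared, 2 with upper-quartile scaling, quantile normalization or the term for libraries 1 and 2 against 3 and 4, and 6 with array weights or with the term and without WT ethanol library 2. They were 3 without that library and LKO control library 4 together, an alternative chosen after seeing the data, and 0 to 3 when 1 library was left out. In LKO they numbered 1, then 0 with no filter, 3 with array weights, 4 with the term and without WT ethanol library 2, and 0 to 3 when 1 library was left out. Averaged over genotypes they were 3, then 2 (without Slco1b2) with either smaller pseudocount, no filter or equal sums, 4 with the term, 6 with array weights or with the term and without that library, and 2 to 4 when 1 library was left out. LKO against WT on ethanol gave 0, then 4 with array weights, 1 with the term and without that library, and 0 to 1 when 1 library was left out. Averaged over diets it gave 0, then 3, 1 and 0 to 1. In WT, Slco1a4 turned from −0.25 to 0.19 with array weights, 0.19 with the term and without library 2, and 0.15 without library 2 alone or with LKO control library 4 (range when 1 library was left out −0.42 to 0.15). Abcb4 turned from −0.30 to 0.91, 0.25 and 0.36 (−0.72 to 0.36), and Abcc2 from −0.90 to 0.12, 0.11 and 0.17 (−1.37 to 0.17). In LKO, Abcb11 turned from −0.0031 to 0.017 with equal sums and 0.070 with quantile normalization (−0.071 to 0.096), Abcc2 from −0.03 to 0.069 with array weights (−0.20 to 0.14), and Abcb4 from 0.13 to −0.026 without LKO control library 1 (−0.026 to 0.34). The cause of these changes was not tested. Slco1a1 and Abcc4 averaged over genotypes were called in every alternative run. Depth limits Abcc4 on the control diet, with 37 to 108 reads per library, and Slco1a1 on ethanol, with 38 to 262.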
